A study of Mus musculus with 28 samples.

Results

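The lysosome is the acid compartment in which macrophages break down what they have taken up, and 41 genes that build it were followed here in murine bone marrow-derived macrophages (BMDMs). The genes were taken by name from the count table, which lists 54532 genes, by a rule on function that uses no measured value. The 41 were chosen with earlier results of these data known. They are 6 membrane proteins, 11 glycosidases, 4 sulfatases, 7 proteins of lipid and protein breakdown, 4 V0 and 6 V1 subunits of the vacuolar ATPase (V-ATPase), and the 3 transcription factors Tfeb, Tfe3 and Mitf. In each of the 9 comparisons 40 of the 41 could be tested. Arsb, an arylsulfatase of dermatan sulfate breakdown, was under the expression minimum of 10 TPM (a share of transcripts, from counts corrected for exon length) in every culture, with at most 6.01 TPM, and has no test.

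Lysosomal enzymes are made in the endoplasmic reticulum, most are tagged with mannose 6-phosphate and sorted to the lysosome, and they work at the low pH that the V-ATPase sets up. This pump has a cytosolic V1 part, which hydrolyses ATP, and a membrane V0 part, which carries the protons and whose a and d subunits occur as several isoforms. Tfeb, Tfe3 and Mitf are members of the MiT family of basic helix-loop-helix factors, which bind the palindrome CACGTG found near the start of many lysosomal genes. They are held in the cytosol by mTORC1 when nutrients are plentiful.

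The macrophages were grown from bone marrow of C57/B6JB mice of 8 to 12 weeks in medium with M-CSF for 7 days. Cultures received PBS (Control), plasma-derived human von Willebrand factor at 10 µg/ml (pd-VWF, here VWF) or bacterial lipopolysaccharide at 100 ng/ml (LPS), all with 1 mM CaCl2, and RNA was taken after 3.5 h or 16 h. Each time had 5 Control, 5 VWF and 4 LPS cultures, 28 in all. The labels call them biological replicates without saying whether they come from separate mice, so p-values measure the spread between cultures, and the VWF and LPS comparisons at a time share their Control cultures.

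The base runs that MiT factors bind were looked for in the promoter windows of these genes. RefSeq windows of 250 bases before to 50 after the start (GRCm38.p6) were read for 35 of the 41. CACGTG, which reads the same on both strands, was in 10 of the 35 windows, or 28.6%, against 8.09% of 27025 genes with such a window. The longer GTCACGTG (either strand), which contains it, was in 8 of the 35, or 22.9%, against 2.55% of all genes, and TCACGTGA was in 4 of the 35, or 11.4%, against 1.12%. The 24 bases around the match are shown for the 10 genes, 5′ to 3′ on the strand of the gene, with CACGTG in capitals.
Arsa, chr15:89477426-89477449, minus strand: actcagtgtCACGTGttgtctgct
Atp6v0d1, chr8:105566053-105566076, minus strand: tactgcggtCACGTGagacgcggt
Atp6v1a, chr16:44139376-44139399, minus strand: tttttaaatCACGTGataggctta
Gaa, chr11:119267814-119267837, plus strand: ctgtgcgatCACGTGtttgactct
Gla site 1, chrX:134601218-134601241, minus strand: gcgattgatCACGTGagcatctac
Gla site 2, chrX:134601185-134601208, minus strand: gatctcggtCACGTGagcaactct
Glb1, chr9:114401021-114401044, plus strand: cttctgagtCACGTGgcctacaga
Lamp1 site 1, chr8:13159091-13159114, plus strand: gcaagatatCACGTGgtccagcgc
Lamp1 site 2, chr8:13159107-13159130, plus strand: tccagcgccCACGTGatgccgact
Lamp1 site 3, chr8:13159124-13159147, plus strand: gccgactggCACGTGaccacatca
Lamp1 site 4, chr8:13159137-13159160, plus strand: tgaccacatCACGTGcggaacgga
Mcoln1 site 1, chr8:3500439-3500462, plus strand: cgcgcttgtCACGTGttcagttca
Mcoln1 site 2, chr8:3500465-3500488, plus strand: cgccccgctCACGTGaccgcggcg
Naglu, chr11:101070012-101070035, plus strand: ccttcaggtCACGTGgcccgaggt
Sgsh, chr11:119355525-119355548, minus strand: cctgccgtgCACGTGaccgtgggg
Lamp1 held 4 matches, and Gla and Mcoln1 held 2 each. The 10 genes include 4 glycosidases (Gla, Gaa, Glb1 and Naglu), the sulfatases Arsa and Sgsh, the membrane proteins Lamp1 and Mcoln1, and the V-ATPase subunits Atp6v0d1 and Atp6v1a. No window of Tfeb, Tfe3 or Mitf held the run. A match is a run of letters and was not tested for binding, and its absence says only that these letters are not in the window.

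Libraries held 41131209 to 77699206 counts (median 52986574). Values per culture are CPM, counts scaled for library size with trimmed mean of M-values (TMM) factors, and levels of different genes are compared in TPM. Macrophage markers summed to 8288 to 28864 CPM per culture, with all 9 genes detected in every group. The summed lists of other cells stayed at 12.0 CPM or less for neutrophils, 9.77 for T and NK cells, 24.2 for B cells, 31.9 for dendritic cells, 0.423 for erythroid cells, 3.38 for mast cells, 117 for osteoclasts and 436 for fibroblasts. Ly6g was at 0 in 4 of the 6 groups and the mast cell receptor gene Fcer1a in 5. In each group, however, 5 to 8 of the 8 neutrophil genes and 3 or 4 of the 4 mast cell genes had a count. The dendritic cell list moved with treatment, from 1.32 to 2.13 CPM in Control to 14.5 to 19.7 with VWF and 22.4 to 27.4 with LPS at 3.5 h, and from 0.716 to 1.95 in Control to 1.06 to 3.09 with VWF and 14.1 to 31.9 with LPS at 16 h. Other lists moved without overlap too. Macrophage markers summed to 24223 to 28864 CPM with VWF at 16 h against 8288 to 18651 in Control. The B cell list was at 8.79 to 11.7 CPM with VWF and 2.12 to 5.17 with LPS at 16 h against 12.6 to 22.5 in Control. The erythroid list was at 0.134 CPM or less with VWF and 0.0965 or less with LPS at 3.5 h against 0.174 to 0.292 in Control. The part of these lists in the results was not tested. Of the 28 libraries 2 stood apart, and both are 16 h cultures. The SD of a gene's log2 distance from the median of the other cultures of its group, over 8867 genes, was 0.889 in Control 16 h replicate 5 and 0.714 in LPS 16 h replicate 4, against 0.141 to 0.416 in the other 26. Members that gained or lost an adjusted p under 0.05 in the 16 h comparisons without them are named.

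**Figure D1:**
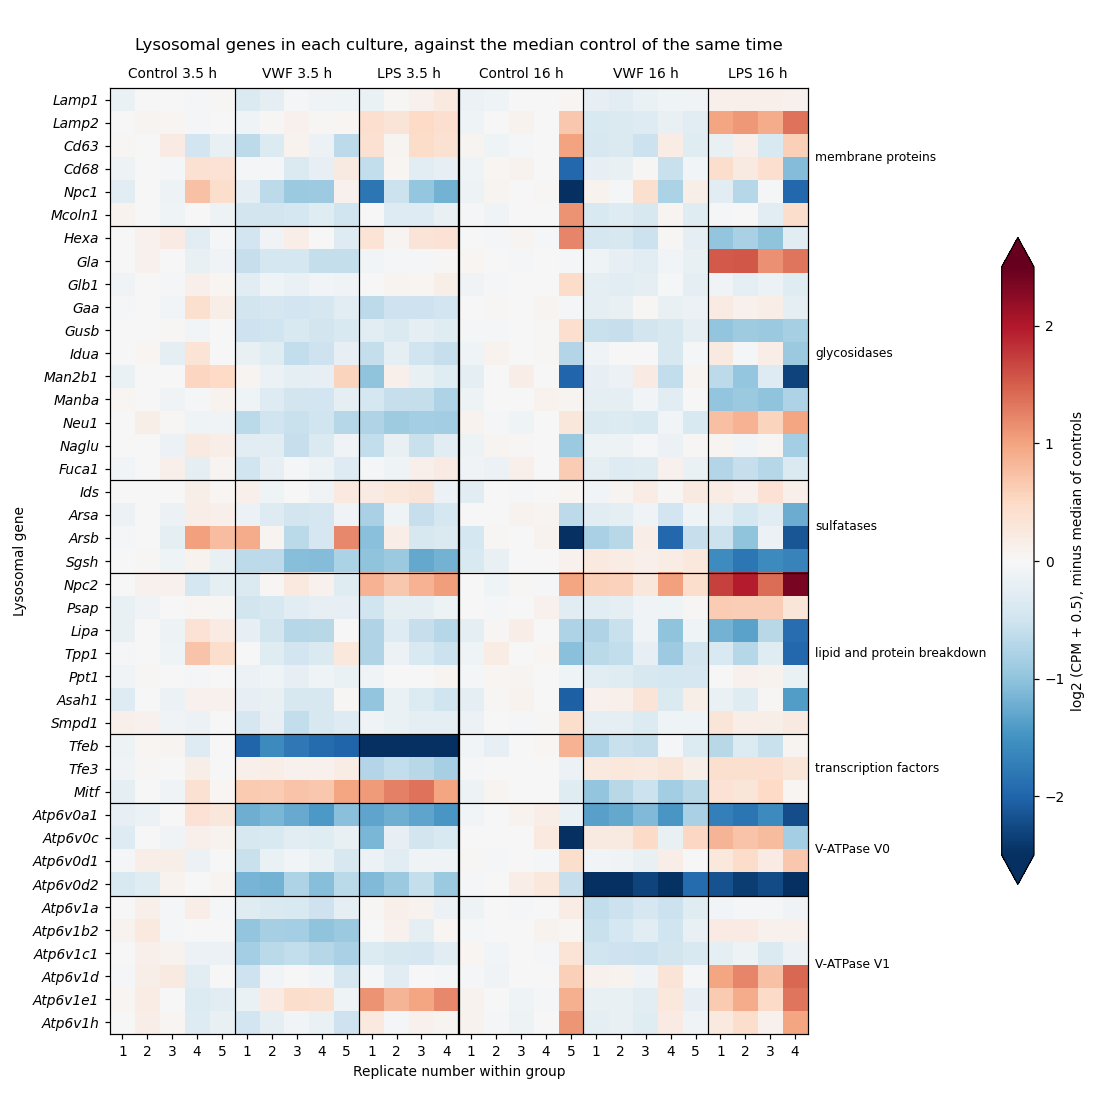
Each of the 41 lysosomal genes (rows, by role) in each of the 28 cultures (columns, by group and replicate number). Colour is log2 of CPM + 0.5 minus the median of the 5 Control cultures of the same time, and values past 2.5 take the end colour. Tfeb is blue in all VWF and LPS cultures at 3.5 h, Atp6v0d2 in all at 16 h, and Control 16 h replicate 5 differs from the other 4 controls in many rows.

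At 3.5 h with VWF the lysosomal genes moved down more often than up. Of the 40 tested, 19 were lower than in Control at an adjusted p under 0.05 (edgeR quasi-likelihood test, Benjamini-Hochberg adjusted over all genes tested) and 1, Mitf, was higher. Over all 8200 genes tested, 20.8% were lower and 22.8% higher by the same rule. With the additional demand of a change over 2-fold, 2 members were lower, Tfeb and Atp6v0a1, and 0 were higher, against 5.52% and 9.18% of all genes. The members' median log2 fold change was −0.27, and that of all genes 0.00. Each role held members that fell, in unequal shares. They were 7 of 11 glycosidases, 4 of 4 V0 subunits and 3 of 6 V1 subunits. The others were 1 of 6 membrane proteins, 1 of 3 tested sulfatases, 2 of 7 genes of lipid and protein breakdown and 1 of 3 factors. Among the V0 subunits the calls of Atp6v0d1 and Atp6v0c were lost without some single cultures.

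With LPS at 3.5 h, 18 of the 40 were lower and 5 higher than Control, against 33.9% and 31.8% of the 8190 genes tested. Past 2-fold, 4 were lower (Tfeb, Atp6v0a1, Npc1 and Sgsh) and 2 higher (Mitf and Atp6v1e1), against 11.8% and 12.8% of all genes. The members' median was −0.24 and the median of all genes −0.02.

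VWF compared with LPS directly at 3.5 h gave 12 members lower and 4 higher with VWF, where 24.0% and 26.3% of 7500 genes were. Only Tfeb passed 2-fold, upwards, and 0 members passed it downwards, against 4.71% and 6.71% of all genes. The V1 subunits hold 5 of the 12.

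With all libraries fewer members differed from Control with VWF at 16 h than at 3.5 h. There were 11 lower and 1, Tfe3, higher, against 14.7% and 13.1% of 7798 genes. Past 2-fold, Atp6v0d2 and Atp6v0a1 were lower and 0 were higher, against 4.15% and 4.55%. The members' median was −0.29 and that of all genes −0.03. Without Control 16 h replicate 5, 17 were lower and 3 higher, and 3282 of 7696 genes passed in place of 2163 of 7798. The drop in members from 3.5 h was thus not seen without that library. The 8 members gained were Hexa, Gla, Glb1, Tpp1, Smpd1 and Arsa, at −0.61 to −0.19, and Npc2 (0.62) and Sgsh (0.32), with adjusted p values up to 0.0462.

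With LPS at 16 h members passed in both directions, in shares close to or under those of all genes. At an adjusted p under 0.05, 10 members were higher and 8 lower than Control, against 27.3% and 26.4% of 7994 genes. Past 2-fold there were 3 higher (Npc2, Gla and Atp6v1d) and 5 lower (Atp6v0d2, Atp6v0a1, Sgsh, Lipa and Hexa), against 15.3% and 12.4%. The median over the members was 0.04, next to −0.03 for all genes. Without both libraries that stood apart, 4 members were higher and 4 lower past 2-fold, beside 2243 of 7861 genes in either direction. Hexa was then no longer among the lower ones. At the adjusted p 18 members were then higher and 13 lower, and 5910 of 7861 genes passed in place of 4293 of 7994. The 13 members gained were Lamp1, Cd68, Gaa, Smpd1, Atp6v0c, Atp6v0d1, Atp6v1b2 and Atp6v1h, higher by 0.17 to 0.75, and Man2b1, Tpp1, Arsa, Tfeb and Atp6v1c1, at −0.58 to −0.19, with adjusted p values up to 0.0355, though 7 of the 8 higher ones, all but Atp6v0c, were below 0 when all libraries were scaled to total counts.

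Between the agonists at 16 h, 16 members were lower with VWF than with LPS and 7 were higher, against 31.0% and 29.5% of 7574 genes. Past 2-fold, Gla, Lamp2, Npc2, Neu1, Mitf and Atp6v1d were lower and Sgsh was higher, against 14.5% and 11.1%. All 6 V1 subunits were among the 16. With the replicate number as a block 18 members were lower and 10 higher, and 5 and 1 past 2-fold. Of all genes 5622 of 7574 then passed the adjusted p, in either direction, and 1943 were past 2-fold. Without LPS 16 h replicate 4, Cd68, Gaa, Tfe3 and Atp6v0c passed as lower with VWF (−0.54 to −0.16, all 4 above 0 when all libraries were scaled to total counts) and Man2b1 as higher (0.51), while Lipa no longer passed (adjusted p = 0.0582).

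In Control cultures 16 h against 3.5 h, 6 members were higher and 3 lower at an adjusted p under 0.05, beside 21.2% and 20.2% of 8333 genes. In edgeR 0 passed 2-fold, with 13 at an unadjusted p under 0.05, and DESeq2 called 1, Npc1, at −1.07. Without Control 16 h replicate 5, 9 more members passed the adjusted p, all lower at 16 h, from −0.80 for Npc1 to −0.21 for Ids, the others being Man2b1, Lipa, Asah1, Sgsh, Tfeb, Atp6v1d and Atp6v1h. Of all genes 4342 of 8237 then passed in place of 3446 of 8333. The response to VWF differed between the times by over 2-fold, as an interaction term, in 4 members (2 upward, 2 downward) and the response to LPS in 7 (5 upward, 2 downward). The shares of all genes were 5.47% upward and 8.05% downward for VWF, and 13.5% and 12.8% for LPS.

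These directions depend in part on how libraries are scaled. TMM factors ran from 0.735 to 1.18 and were lowest in LPS cultures. Scaling to the total count alone put the median of all genes at 3.5 h at −0.22 with VWF, −0.54 with LPS and 0.30 for VWF against LPS, and at 16 h at −0.08, −0.57 and 0.44. The counts of higher and lower members then became 1 and 33 for VWF and 3 and 34 for LPS at 3.5 h, 0 and 17 for VWF and 5 and 21 for LPS at 16 h, and 18 and 4 (3.5 h) and 15 and 7 (16 h) for VWF against LPS. Past 2-fold they became 0 and 12 for LPS at 3.5 h, 1 and 10 for LPS at 16 h, and 6 and 1 for VWF against LPS at 16 h. Of all genes, 4326 of 8200 then passed the adjusted p with VWF and 6269 of 8190 with LPS at 3.5 h, in either direction. At 16 h 2042 of 7798 and 5395 of 7994 passed. For VWF against LPS 4648 of 7500 (3.5 h) and 5285 of 7574 (16 h) did. Past 2-fold were 2865 of 8190 genes with LPS at 3.5 h, 3046 of 7994 with LPS at 16 h, and 2426 of 7574 for VWF against LPS at 16 h. Every member past 2-fold with TMM kept its direction and an adjusted p under 0.05.

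**Figure D2:**
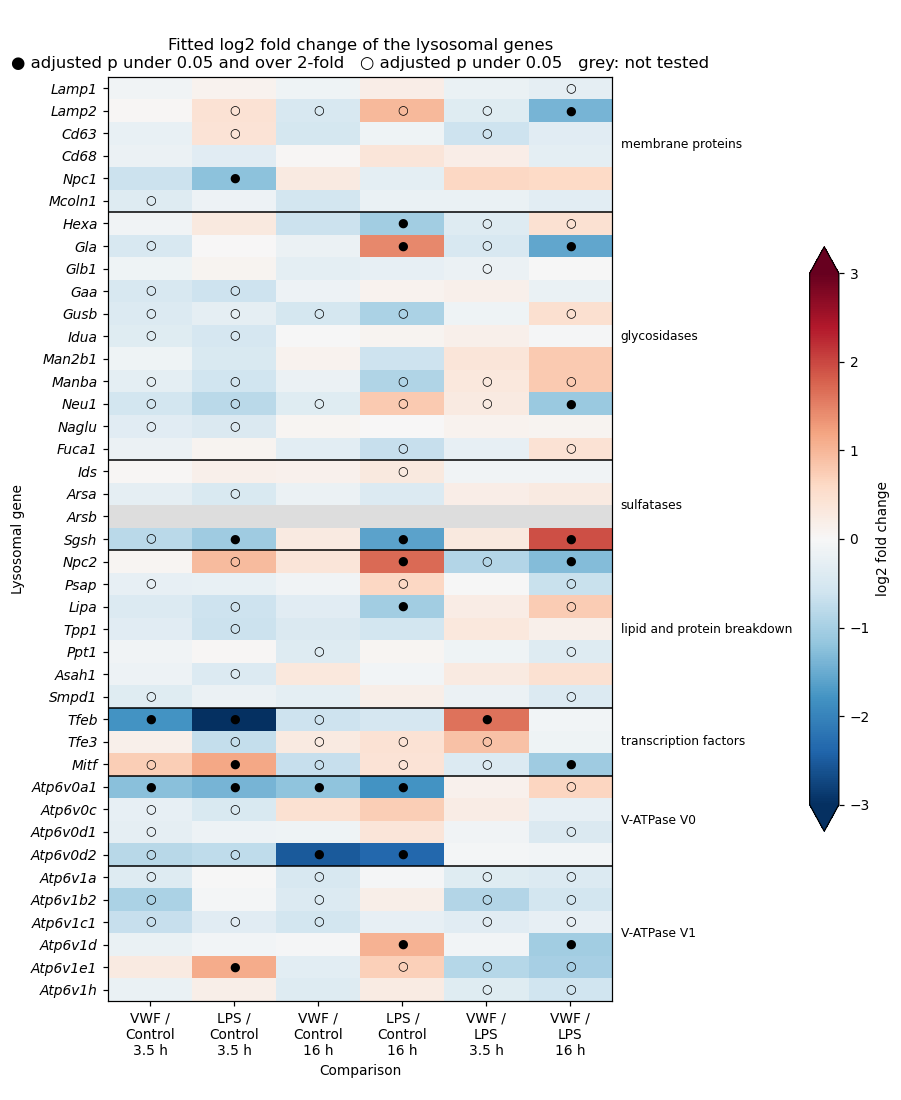
Fitted log2 fold change (colour) of each lysosomal gene (rows, by role) in the 6 treatment comparisons (columns). A filled circle marks an adjusted p under 0.05 with a change over 2-fold, an open circle the adjusted p alone, and grey is the untested Arsb. Tfeb and Atp6v0a1 are the filled blue cells of VWF against Control at 3.5 h, and Atp6v0d2 and Atp6v0a1 those at 16 h.

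In TPM, which is comparable between genes, Psap, the precursor of the saposins that help break down sphingolipids, led the group with a mean of 7745 over the 28 cultures. Lamp1 (1846), Cd68 (1831) and Hexa (1748) followed and lay within each other's range over cultures. Tfeb (29.9), Tfe3 (40.9) and Mitf (61.4) were in the lower part, and Sgsh (10.5) and Arsb (2.57) were last. The 41 together took 26188 ± 2595 TPM in Control, 19154 ± 1587 with VWF (SD, n = 5 each) and 15922 ± 1147 with LPS (SD, n = 4) at 3.5 h. The lowest Control culture, at 23578, was above the highest VWF culture, at 21837, and the highest LPS culture, at 16940.3. At 16 h the sums were 20216 ± 2612, 16797 ± 1664 and 17872 ± 2503, and the groups overlapped. The order of LPS and Control depends on the scale. In TMM-scaled CPM the 41 summed to 25205 ± 1507 with LPS and 25459 ± 1011 in Control at 3.5 h, which overlapped, and to 28420.3 ± 1133 and 22062 ± 1432 at 16 h, where every LPS culture was above every control. With VWF the CPM sums were 21372 ± 1322 and 19241 ± 1136, lower than every control at both times. TPM is a share of all transcripts in a culture, and with bulk RNA less RNA per cell cannot be told apart from fewer cells of a kind.

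Tfeb (GRCm38, chr17:47737030-47792419, plus strand), a main driver of lysosomal gene expression, fell more than any other member at 3.5 h. Control cultures held 95.5, 109, 109, 83.6 and 105 CPM, VWF cultures 25.6, 34.2, 30.1, 27.3 and 25.6 and LPS cultures 9.02, 9.89, 9.63 and 9.16. The 3 groups did not overlap, with every LPS culture under every VWF culture. The log2 fold change was −1.78 with VWF (SE 0.11, adjusted p = 1.35e-07), −3.39 with LPS (SE 0.11, adjusted p = 8.34e-10) and 1.62 between VWF and LPS (SE 0.11, adjusted p = 1.20e-06). At 16 h Tfeb stood at 78.0, 71.2, 81.7, 84.1 and 150.2 CPM in Control, 47.9, 55.6, 53.9, 79.7 and 64.8 with VWF and 50.5, 64.0, 55.8 and 85.3 with LPS. The groups overlapped, and the highest value was that of Control 16 h replicate 5. The log2 fold change was then −0.63, SE 0.21, adjusted p = 0.0477 with VWF and −0.50, adjusted p = 0.125 with LPS. The VWF value lost its call on leaving out any of 7 single cultures (Control 16 h replicates 1, 3 and 4, VWF 16 h replicates 1, 2, 3 and 5), with adjusted p up to 0.117. Without Control 16 h replicate 5 it was −0.40 with VWF (adjusted p = 0.0308). Without both libraries that stood apart it was −0.44 with LPS (adjusted p = 0.00199), so the LPS call depends on them. The change between the times was 1.17 (SE 0.25) for VWF and 2.90 (SE 0.28) for LPS as interaction terms, with adjusted p values of 0.0012 and 2.82e-07.

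Mitf (GRCm38, chr6:97807052-98021349, plus strand), a factor of melanocytes, osteoclasts and macrophages, went the other way at 3.5 h. It read 99.6, 117, 110.2, 152 and 120.3 CPM in Control, 184, 183, 192, 186 and 232 with VWF and 244, 279.8, 299 and 231 with LPS. All treated cultures were above all controls, and the VWF and LPS groups touched in 1 culture. The rise was 0.73, SE 0.11, adjusted p = 2.52e-04 with VWF, and 1.16, SE 0.12, adjusted p = 8.49e-06 with LPS. VWF was below LPS, at a log2 difference of −0.41 (SE 0.10), adjusted p = 0.0088, and −0.12 with scaling to total counts (adjusted p = 0.363). After 16 h the values were 105, 120.1, 115, 115 and 92.8 CPM in Control, 58.0, 71.0, 78.8, 63.0 and 71.2 with VWF and 148, 141, 164 and 119 with LPS. The VWF cultures were now all below Control and LPS. Mitf fell with VWF (−0.69, SE 0.11, adjusted p = 7.39e-04), and the VWF response turned over between the times (interaction −1.40, SE 0.16, adjusted p = 9.41e-07). LPS cultures were higher than Control by 0.42 (SE 0.11), adjusted p = 0.0115, a direction that turned to −0.12 when libraries were scaled to total counts. VWF was below LPS, at a log2 difference of −1.06 (SE 0.12), adjusted p = 3.65e-05, which was −0.99 without LPS 16 h replicate 3.

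Tfe3 (GRCm38, chrX:7762560-7775202, plus strand), the third factor of the group and a close paralog of Tfeb, changed less. At 3.5 h it was at 145, 157, 153, 169 and 154 CPM in Control, 168, 172, 167, 166 and 174 with VWF and 92.7, 99.9, 95.0 and 86.0 with LPS. Only the LPS cultures lay outside the range of the others, below it, with a log2 fold change of −0.72, SE 0.08, adjusted p = 8.15e-06; with VWF it was 0.15, adjusted p = 0.0569. At 16 h Tfe3 read 115, 119, 118, 119.5 and 106 CPM in Control, 139.8, 143, 139, 146 and 131 with VWF and 155, 156, 158 and 145 with LPS. All treated cultures were above all controls. The rise was 0.26 (SE 0.07) with VWF (adjusted p = 0.0147) and 0.45 (SE 0.07) with LPS (adjusted p = 6.68e-04), the latter turning to −0.10 with scaling to total counts. The LPS response thus moved up between the times by 1.18 (SE 0.10), adjusted p = 3.98e-08.

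The make-up of the MiT family within a culture does not depend on the scaling between libraries. Counting Tfec, the fourth member of the family, which was on the list of MiT control genes, Tfeb made up 24.7 to 34.1% of the family's TPM in Control at 3.5 h, 5.73 to 8.34% with VWF and 2.01 to 2.37% with LPS. Tfec went from 3.62 to 5.43% in Control to 21.7 to 29.0% with VWF and 25.0 to 29.4% with LPS. So at 3.5 h Tfec held a larger share than Tfeb in every treated culture and a smaller one in every Control culture. At 16 h Tfeb was at 23.1 to 32.5% with VWF and 17.2 to 29.1% with LPS, against 26.3 to 47.8% in Control. These shares were looked at after the single genes and carry no test.

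**Figure D3:**
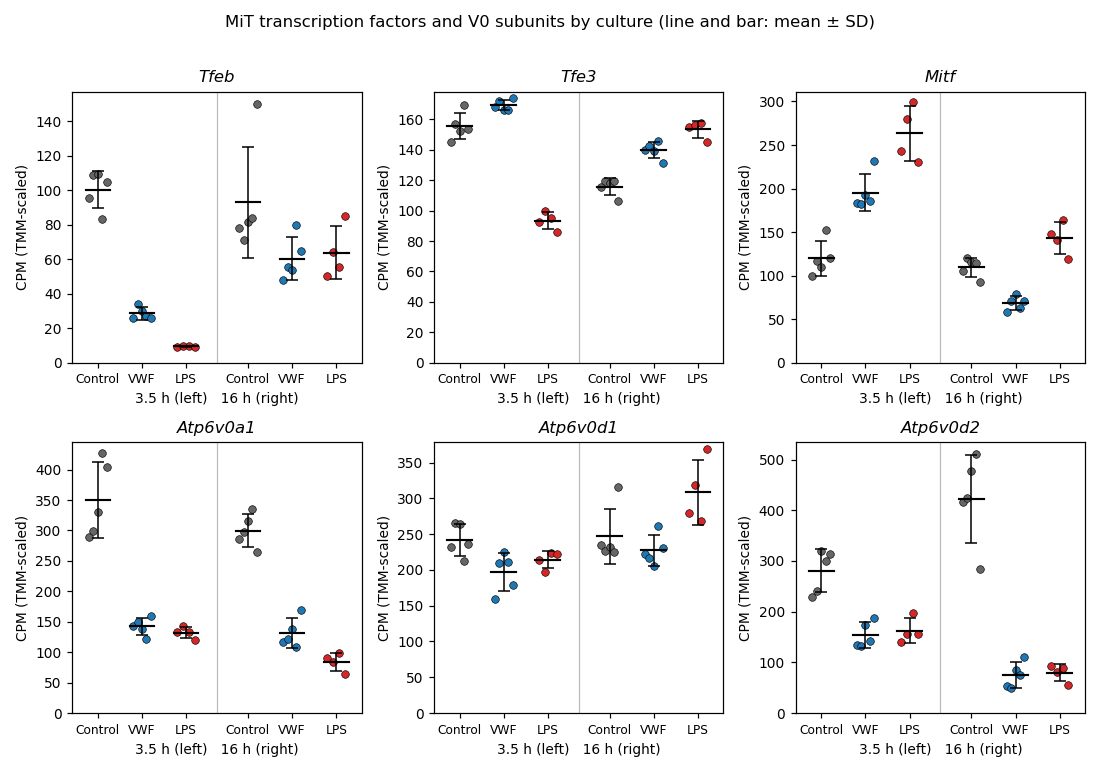
CPM (y axis, from 0) of Tfeb, Tfe3, Mitf and the V0 subunits Atp6v0a1, Atp6v0d1 and Atp6v0d2 in each culture (points), with group mean and SD (line and bar), for Control, VWF and LPS at 3.5 h (left) and 16 h (right). At 3.5 h Tfeb is lower and Mitf higher in every treated culture than in every Control culture, and Atp6v0a1 is lower in every treated culture at both times.

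Among the V0 subunits, Atp6v0a1 (GRCm38, chr11:101009452-101063719, plus strand), the a1 isoform of the subunit that lines the proton path, was past 2-fold in all 4 comparisons with Control. It read 289, 299, 331, 427 and 404 CPM in Control at 3.5 h, 142, 149.8, 139, 122 and 160.2 with VWF and 133, 142, 133 and 121 with LPS. At 16 h the values were 286, 298, 315, 335 and 265 CPM in Control, 116, 122, 139, 108 and 170.1 with VWF and 90.8, 84.0, 98.6 and 63.5 with LPS. No treated culture reached the lowest control of its time, and at 16 h no LPS culture reached the lowest VWF culture. The log2 fold change at 3.5 h was −1.27 (SE 0.12) with VWF (adjusted p = 6.41e-06) and −1.38 (SE 0.12) with LPS (adjusted p = 2.21e-06). At 16 h it was −1.20 (SE 0.13) with VWF (adjusted p = 6.61e-05) and −1.80 (SE 0.14) with LPS (adjusted p = 3.94e-06). VWF and LPS differed at 16 h (0.64, adjusted p = 0.00809), and at 3.5 h the difference was 0.13 (SE 0.09), adjusted p = 0.235.

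The other a isoforms are not members but were on the list of further V-ATPase genes. Their fold changes are given with TMM factors and all libraries only. Tcirg1, the a3 isoform known from osteoclasts and lysosomes, was at 586 ± 27.6 CPM in Control, 919 ± 51.0 with VWF and 1122 ± 94.1 with LPS at 3.5 h (mean ± SD). At 16 h it was at 628 ± 177 in Control, 583 ± 78.1 with VWF and 1488 ± 216 with LPS. It rose at 3.5 h with VWF (0.68, adjusted p = 1.18e-05) and LPS (0.96, adjusted p = 2.28e-06), and at 16 h with LPS (1.28, adjusted p = 5.20e-04), where the change with VWF was −0.11, adjusted p = 0.696. Over the 4 a isoforms together, Atp6v0a1 supplied 24.9 to 32.3% of the TPM in Control at 3.5 h, 8.18 to 10.9% with VWF and 7.15 to 7.83% with LPS. At 16 h it supplied 16.4 to 29.0%, 9.47 to 18.1% and 2.39 to 4.87%. The share of Atp6v0a1 was thus lower in every treated culture than in every control at 3.5 h, while at 16 h the highest VWF culture passed the lowest Control culture, replicate 5.

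Atp6v0d2 (GRCm38, chr4:19876841-19922605, minus strand), the d isoform known from osteoclasts and macrophages, fell at both times and furthest at 16 h. Its early values were 229, 241, 319.8, 299 and 315 CPM in Control, 133, 131, 174, 142 and 188 with VWF and 139, 156, 198 and 157 with LPS. The late ones were 416, 423, 478, 511 and 284 CPM in Control, 54.0, 48.6, 84.4, 76.0 and 111 with VWF and 93.2, 81.6, 89.5 and 55.4 with LPS. Treated and control cultures did not overlap at either time, and the VWF and LPS groups overlapped at both. At 3.5 h the log2 fold change was −0.84, SE 0.13, adjusted p = 2.93e-04 with VWF and −0.77, SE 0.13, adjusted p = 4.31e-04 with LPS. At 16 h it was −2.51, SE 0.25, adjusted p = 3.65e-05 with VWF and −2.37, SE 0.21, adjusted p = 1.19e-05 with LPS. Both falls were larger at 16 h, with interaction terms of −1.65 (SE 0.28) for VWF (adjusted p = 1.15e-04) and −1.58 (SE 0.25) for LPS (adjusted p = 5.35e-05). VWF and LPS differed by −0.06 (SE 0.13) at 3.5 h and −0.09 (SE 0.25) at 16 h, with adjusted p values of 0.741 and 0.775. The 7 genes of the osteoclast list summed to 41.6 to 74.4 CPM in Control at 16 h, 66.4 to 117 with VWF and 72.0 to 105 with LPS. Calcr, a defining gene, was at 0 in 3 of the 6 groups, while 6 or 7 of the 7 genes had a count in each group.

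Atp6v0d1 (GRCm38, chr8:105524465-105566047, minus strand), the d isoform found in most tissues, read 233, 266, 264, 213 and 237 CPM in Control at 3.5 h, 159.9, 209.5, 224, 211 and 179 with VWF and 214, 198, 224 and 222 with LPS. At 16 h it read 235, 226, 232, 225 and 316 CPM in Control, 222, 217, 205, 262 and 230.1 with VWF and 279.6, 319, 268 and 368 with LPS. The groups overlapped except VWF and LPS at 16 h, where VWF was lower (−0.44, adjusted p = 0.00715), a direction lost with scaling to total counts (0.01). It fell with VWF at 3.5 h, at −0.27 (SE 0.10), adjusted p = 0.0487, or up to 0.114 without single cultures. Within the d pair, Atp6v0d2 made up 37.4 to 48.1% of the TPM in Control at 3.5 h and 37.3 to 60.1% at 16 h. The mean was 34.1 ± 4.57% with VWF and 33.3 ± 2.98% with LPS (SD) at 3.5 h, and the range 12.9 to 24.1% and 9.03 to 18.1% at 16 h. The d pair therefore held less Atp6v0d2 in every treated culture than in any control at 16 h. Atp6v0c, the proteolipid that forms the rotor ring, fell at 3.5 h with VWF (−0.25, adjusted p = 0.0336) and LPS (−0.45, adjusted p = 0.0352). Without single cultures these p values reached 0.0784 and 0.0696, and 7.84% of its exon windows share sequence with the pseudogene Atp6v0c-ps2. At 16 h Control replicate 5 read 31.2 CPM of it against 183 to 217 in the other 4. Without both libraries that stood apart Atp6v0c was higher with LPS (0.75, adjusted p = 2.22e-05) in place of 0.75, adjusted p = 0.255.

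**Figure D4:**
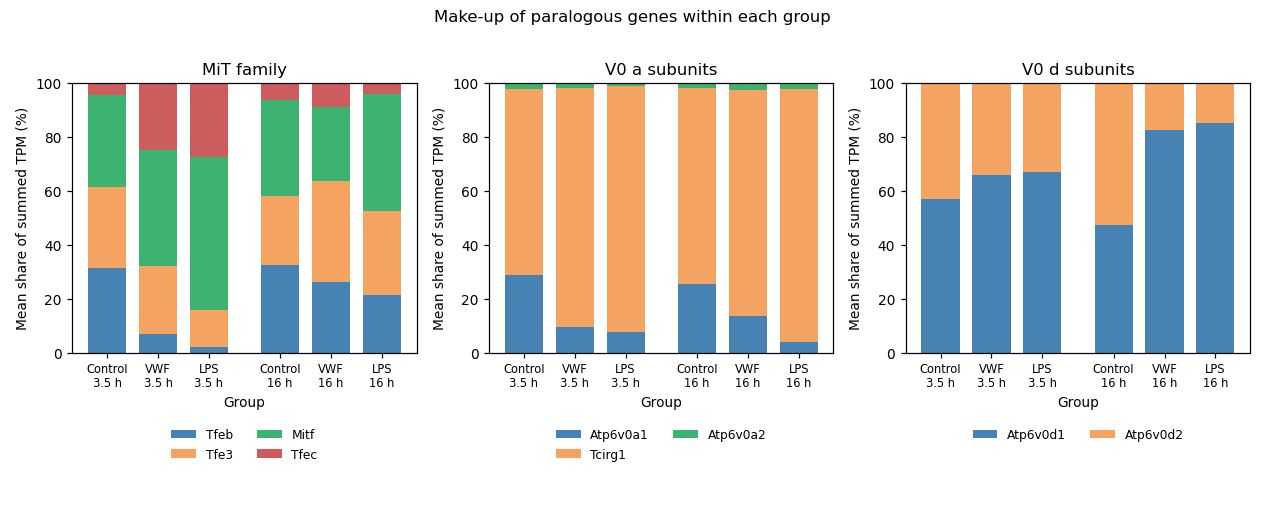
Mean share of summed TPM (y axis, %) that each paralog took within a culture, per group (n = 5 for Control and VWF, 4 for LPS), for the MiT family, the V0 a subunits and the V0 d subunits. Atp6v0a4, at most 0.0252% in a culture, is not drawn. Tfeb is narrowest and Tfec widest in the treated groups at 3.5 h, and Atp6v0d2 is narrowest in those at 16 h.

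Of the 6 V1 subunits, 5 passed the adjusted p threshold as lower with VWF than with LPS at 3.5 h and 6 at 16 h, but with scaling to total counts 2 passed at each time and Atp6v1a and Atp6v1c1 turned direction at 16 h. Atp6v1e1 (GRCm38, chr6:120794305-120822793, minus strand), a stalk subunit and the V1 gene with the highest mean TPM, was at 444, 488, 428, 336 and 358 CPM in Control at 3.5 h, 381, 490.4, 584, 568 and 397 with VWF and 927, 775, 846 and 983 with LPS. Every LPS culture exceeded all others of that time, and Control and VWF overlapped. It rose with LPS (1.12, SE 0.13, adjusted p = 1.92e-05), the change with VWF was 0.26, adjusted p = 0.182, and VWF was below LPS (−0.85, adjusted p = 6.83e-04). By 16 h it read 379, 354, 328, 349 and 653 CPM in Control, 310.2, 312, 293, 424 and 309 with VWF and 558, 674, 497 and 903 with LPS. The LPS group overlapped Control only through Control replicate 5, at 653 CPM. LPS was higher than Control (0.71, adjusted p = 0.0404, up to 0.109 without single cultures) and VWF lower than LPS (−0.99, adjusted p = 9.80e-04).

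Atp6v1d (GRCm38, chr12:78840725-78861638, minus strand), a subunit of the central shaft, rose only with LPS at 16 h among the comparisons with Control. The 16 h values were 135, 129, 138, 138 and 208 CPM in Control, 148, 146, 129, 173 and 136 with VWF and 275, 321, 229.6 and 371 with LPS. All LPS cultures were above all others. At 3.5 h the readings had been 174, 199, 209.6, 148 and 179 CPM in Control, 125, 171, 182, 172 and 134 with VWF and 175, 148, 177 and 176 with LPS, with overlap between all groups. The change at 16 h was 1.04, SE 0.19, adjusted p = 0.00121 with LPS and −0.04, adjusted p = 0.874 with VWF. VWF was lower than LPS, at a log2 difference of −1.03 (SE 0.14), adjusted p = 1.49e-04. Replicate numbers were taken to pair the VWF and LPS cultures at 16 h, and with them as a block this value was −0.99, just under 2-fold. Without LPS 16 h replicate 4 it was −0.92, and the rise with LPS was 0.91. The rise without Control 16 h replicate 2, and the difference without VWF 16 h replicate 3 or LPS 16 h replicate 2, were also under 2-fold.

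Of the remaining V1 genes, Atp6v1b2 and Atp6v1a, the B and A subunits of the catalytic ring, and Atp6v1c1, a stalk subunit, fell with VWF at both times. Atp6v1b2 went from 641 ± 53.6 (SD, n = 5) to 324 ± 17.5 (SD, n = 5) CPM at 3.5 h (−0.96, adjusted p = 1.25e-06), and no VWF culture reached the controls. With LPS it was 605 ± 61.3 (SD, n = 4) CPM (−0.06, adjusted p = 0.614), so that VWF lay below LPS, at a log2 difference of −0.88 (SE 0.09), adjusted p = 2.03e-05. By 16 h the VWF change of Atp6v1b2 had shrunk to −0.41 (interaction 0.56, SE 0.11, adjusted p = 5.54e-04). Atp6v1c1 changed by −0.69 with VWF at 3.5 h and −0.55 at 16 h, and Atp6v1a by −0.38 and −0.49, with adjusted p values from 1.85e-05 to 0.0021. Atp6v1c1 fell with LPS at 3.5 h too (−0.33, adjusted p = 0.00704). Atp6v1h, a regulatory subunit, differed between VWF and LPS at both times (−0.37 and −0.59) and from Control in neither, though it was 0.32 with LPS at 16 h (adjusted p = 0.00761) without both libraries that stood apart and −0.27 with scaling to total counts. All 6 V1 subunits were lower with VWF than with LPS at 16 h, between −1.03 for Atp6v1d and −0.26 for Atp6v1c1, though with scaling to total counts Atp6v1a (0.02) and Atp6v1c1 (0.19) were above 0.

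Summed over the members only, the 4 V0 genes took 1152 ± 139.5 TPM in Control, 674 ± 56.9 with VWF and 502 ± 43.1 with LPS at 3.5 h. The 6 V1 genes took 1431 ± 81.3, 963 ± 24.7 and 1099 ± 45.6. The V0 sum is not that of the whole V0 part, since it leaves out Tcirg1, which rose with both agonists at 3.5 h. Of the TPM of the a isoforms Tcirg1 then held a mean of 69.1% in Control, 88.5% with VWF and 91.3% with LPS. In TPM both sums were lower in every treated culture than in every control. For V1 with LPS this depends on the scale. In TMM-scaled CPM the V1 genes summed to 2773 ± 92.7 with LPS, 2403 ± 183 in Control and 1821 ± 139 with VWF, so that VWF was below both on either scale.

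The membrane proteins moved less. Lamp1 (GRCm38, chr8:13159161-13175338, plus strand), a glycoprotein of the lysosomal membrane, had the highest mean TPM of the 6 membrane members, at 1846 against 1831 for Cd68. At 3.5 h Lamp1 was at 1771, 1999, 2006, 1971 and 2028 CPM in Control, 1551, 1694, 1922, 1869 and 1858 with VWF and 1785, 2031, 2165 and 2360.3 with LPS. In the 16 h cultures it was at 1640.5, 1684, 1819, 1808 and 1882 CPM in Control, 1577, 1514, 1606, 1681 and 1711 with VWF and 1963, 1978, 1969 and 1955 with LPS. The groups overlapped at 3.5 h, and at 16 h every LPS culture lay above every other. In the 4 comparisons with Control its log2 fold change was between −0.13 and 0.19, with no adjusted p under 0.05. With LPS at 16 h it was 0.22 without both libraries that stood apart (adjusted p = 0.0227) and turned to −0.35 with scaling to total counts (adjusted p = 0.0138). VWF was lower than LPS at 16 h (−0.28, adjusted p = 0.0145), which turned to 0.16 with scaling to total counts, and 9.31% of the Lamp1 exon length lies opposite Grtp1.

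Lamp2 (GRCm38, chrX:38401357-38456454, minus strand), its paralog and a receptor of chaperone-mediated autophagy, separated the agonists. At 3.5 h it read 652, 688, 681, 635 and 660.2 CPM in Control, 610.2, 673, 714, 674 and 679 with VWF and 885, 825, 931 and 885 with LPS. By 16 h the readings were 563, 603, 653, 610.0 and 972 CPM in Control, 466, 476, 485, 538 and 499.5 with VWF and 1214, 1287, 1165 and 1560.1 with LPS. All LPS cultures were above all others at both times, and at 16 h all VWF cultures were below all controls. With LPS the change was 0.43, adjusted p = 5.62e-04 at 3.5 h, which turned to −0.09 with scaling to total counts, and 0.98, adjusted p = 0.00143 at 16 h. With VWF it was 0.04, adjusted p = 0.662 at 3.5 h and −0.47, adjusted p = 0.0277 at 16 h (up to 0.0728 without single cultures). The agonists differed by −1.40 (SE 0.11) at 16 h, adjusted p = 2.09e-06.

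Npc1 (GRCm38, chr18:12189692-12236400, minus strand), the transporter that carries cholesterol out of the lysosome, fell with LPS at 3.5 h. It stood at 113, 137, 125, 227 and 186 CPM in Control, 117, 86.4, 71.6, 72.4 and 147 with VWF and 38.5, 94.0, 69.6 and 60.1 with LPS. The LPS cultures were all below the controls, while the VWF cultures overlapped both. The change was −1.24, SE 0.27, adjusted p = 0.00183 with LPS and −0.64, adjusted p = 0.0576 with VWF. By 16 h it was at 82.5, 94.5, 90.5, 92.1 and 15.5 CPM in Control, 95.8, 88.0, 119.6, 52.3 and 101 with VWF and 74.6, 55.1, 87.7 and 22.9 with LPS. Control replicate 5 and LPS replicate 4 held the lowest values, and no adjusted p between these groups was under 0.05. Without both, the change with LPS was −0.27 (adjusted p = 0.107). The cation channel Mcoln1 fell with VWF at 3.5 h (−0.38, adjusted p = 7.35e-04). Cd63, a tetraspanin, was higher with LPS at 3.5 h (0.42, adjusted p = 0.0266, up to 0.0766 without single cultures), turning to −0.10 with scaling to total counts. The macrophage glycoprotein Cd68 passed in no comparison or interaction with all libraries, with log2 values from −0.46 to 0.74. Without both libraries that stood apart it was higher with LPS at 16 h (0.39, adjusted p = 0.00243), and with scaling to total counts it was at −0.19.

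The glycosidases remove sugars from glycolipids, glycoproteins and glycosaminoglycans, and 7 of the 11 were lower with VWF at 3.5 h. They were Neu1 (−0.56), Gaa (−0.48), Gla (−0.47), Gusb (−0.41), Idua (−0.37), Naglu (−0.34) and Manba (−0.29), at adjusted p values up to 0.0305. Only Idua lost the call without single cultures (up to 0.0729). With LPS 6 of these were lower at 3.5 h, Gla being the exception (0.02, adjusted p = 0.871), which turned to −0.50 with scaling to total counts. Gla (GRCm38, chrX:134588149-134601125, minus strand), the alpha-galactosidase that is deficient in Fabry disease, read 195, 209.5, 198, 171 and 183 CPM in Control, 131, 143, 144, 129 and 129 with VWF and 187, 191, 188 and 198 with LPS at 3.5 h. In the 16 h cultures it read 194, 187, 182, 189.6 and 182 CPM in Control, 173, 163, 155, 177 and 165 with VWF and 541, 549, 414 and 471 with LPS. The VWF cultures were below all others at both times, and late, the LPS cultures were above all others. The late rise with LPS was 1.44, SE 0.10, adjusted p = 2.20e-06, and the late change with VWF −0.17, adjusted p = 0.0763, or −0.19 without Control 16 h replicate 5 (adjusted p = 0.0204). The agonists differed by −1.56 (SE 0.10) at 16 h (adjusted p = 8.47e-07), and the LPS response by 1.43 (SE 0.11) between the times (adjusted p = 2.73e-08).

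Neu1 (GRCm38, chr17:34931253-34935953, plus strand), the lysosomal sialidase, turned over with LPS. Control cultures had 137, 151, 139, 127 and 129 CPM at 3.5 h, VWF cultures 85.5, 96.9, 93.3, 96.4 and 83.3 and LPS cultures 81.3, 73.6, 75.7 and 75.1. At 16 h they had 183, 170.2, 159.7, 173 and 209.8 CPM in Control, 134, 136, 132, 165 and 133 with VWF and 294, 318, 255 and 345 with LPS. At 3.5 h the 3 groups did not overlap, LPS being lowest, and at 16 h LPS was above every other culture. The change with LPS went from −0.82 (SE 0.08) (adjusted p = 5.21e-06) to 0.79 (SE 0.12) (adjusted p = 3.74e-04), a difference of 1.62 (SE 0.14) with an adjusted p of 6.54e-08. With VWF it was −0.56 and then −0.36 (adjusted p = 0.0124). VWF was below LPS at 16 h, at a log2 difference of −1.11 (SE 0.11), adjusted p = 1.19e-05.

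Hexa (GRCm38, chr9:59539540-59565109, plus strand), the alpha chain of hexosaminidase A, fell with LPS at 16 h, past 2-fold with all libraries but not without both that stood apart. Its readings were 1418, 1536, 1625, 1176 and 1387 CPM in Control, 1013, 1333, 1581, 1419 and 1133 with VWF and 1803, 1482, 1763 and 1814 with LPS at 3.5 h. At 16 h they were 1274, 1233, 1340.1, 1244 and 2959 CPM in Control, 952, 969.8, 882, 1304 and 1091 with VWF and 639, 730.0, 635 and 1044 with LPS. Every LPS culture at 16 h was below every control, and Control replicate 5 held more than any other culture. The LPS change was −1.04, SE 0.32, adjusted p = 0.0198, and without both libraries that stood apart it was −0.89 (adjusted p = 5.35e-06), under 2-fold. Leaving out LPS 16 h replicate 1, 2 or 3 singly ended the call, with adjusted p values up to 0.0594. The LPS response differed between the times by −1.32 (SE 0.34), adjusted p = 0.00431, or −0.97 without Control 16 h replicate 5. Of the Hexa exon length 12.8% lies opposite Tmem202.

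The glycosidases that fell with LPS at 16 h beside Hexa were Gusb (−0.95, adjusted p = 1.55e-04), Manba (−0.91, adjusted p = 2.28e-05) and Fuca1 (−0.69, adjusted p = 0.00959), which act on glucuronides, mannosides and fucosides. Gusb went from 768 ± 114 (SD, n = 5) to 388 ± 17.3 (SD, n = 4) CPM, without overlap, and was at 537 ± 53.1 (SD, n = 5) with VWF (−0.52, adjusted p = 0.00452). All 4 were higher with VWF than with LPS at 16 h, by 0.45 for Hexa, 0.47 for Gusb, 0.79 for Manba and 0.42 for Fuca1. For Hexa the p value reached 0.134 without single cultures. Gaa, the acid maltase, was at 0.10 (adjusted p = 0.442) with LPS after −0.62 at 3.5 h, an interaction of 0.74 (SE 0.15), adjusted p = 5.39e-04. The 16 h value turned to −0.44 with scaling to total counts (adjusted p = 0.0246) and was 0.17 without both libraries that stood apart (adjusted p = 0.0249). Glb1, the beta-galactosidase, passed only between VWF and LPS at 3.5 h (−0.18, adjusted p = 0.0474, up to 0.123 without single cultures), turning to 0.11 with scaling to total counts. Man2b1, an alpha-mannosidase, passed in none of the 9 comparisons with all libraries, and without both that stood apart it was −0.58 with LPS at 16 h (adjusted p = 0.00704).

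Of the sulfatases, which strip sulfate from glycosaminoglycans and sulfatides, Sgsh (GRCm38, chr11:119343425-119355536, minus strand), the enzyme of heparan sulfate breakdown deficient in Sanfilippo syndrome type A, changed most. It was at 22.9, 23.3, 21.4, 24.3 and 20.2 CPM in Control, 14.3, 14.5, 10.7, 10.5 and 13.1 with VWF and 11.2, 11.8, 9.19 and 9.78 with LPS at 3.5 h. By 16 h it was at 15.8, 18.0, 20.8, 20.6 and 22.3 CPM in Control, 24.4, 23.6, 22.4, 23.4 and 24.6 with VWF and 6.60, 5.55, 6.45 and 6.15 with LPS. At 3.5 h all treated cultures were below Control, and at 16 h all LPS cultures were below it and all VWF cultures above it. The changes were −0.80, adjusted p = 1.51e-04 with VWF and −1.07, adjusted p = 5.03e-06 with LPS at 3.5 h. At 16 h they were 0.27, adjusted p = 0.0589 with VWF and −1.62, adjusted p = 7.59e-06 with LPS, and with VWF 0.32 without Control 16 h replicate 5 (adjusted p = 0.0124). The agonists differed by 1.94 (SE 0.09) at 16 h, adjusted p = 1.33e-07, and the VWF response differed between the times by 1.09 (SE 0.15), adjusted p = 1.34e-05. The annotation places 21.6% of the Sgsh exon length opposite Card14, and whether the counting used strand is not given in the sources used here.

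Ids (GRCm38, chrX:70343069-70365084, minus strand), the iduronate sulfatase and the sulfatase with the highest mean TPM, read 55.7, 55.8, 55.7, 62.1 and 57.5 CPM in Control, 60.9, 51.7, 55.6, 52.8 and 65.9 with VWF and 64.1, 67.5, 69.9 and 50.6 with LPS at 3.5 h. In the 16 h cultures it read 42.5, 52.1, 50.8, 52.1 and 53.9 CPM in Control, 49.9, 54.3, 59.4, 53.3 and 61.0 with VWF and 59.3, 56.5, 66.9 and 56.9 with LPS. The groups overlapped at 3.5 h, and at 16 h the LPS cultures were above the controls. With all libraries it passed only with LPS at 16 h (0.29, adjusted p = 0.0349, up to 0.0901 without single cultures), turning to −0.24 with scaling to total counts. Arsa, the arylsulfatase of sulfatide breakdown, fell with LPS at 3.5 h (−0.46, adjusted p = 0.0148), and 18.8% of its exon length lies opposite C230037L18Rik.

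The genes of lipid and protein breakdown held the largest rise over Control among the 41. Npc2 (GRCm38, chr12:84754562-84773152, minus strand), the soluble protein that hands cholesterol to Npc1, read 1694, 1827, 1822, 1251 and 1458 CPM in Control, 1318, 1737, 2015, 1830.2 and 1372 with VWF and 3103, 2716, 3080.3 and 3482 with LPS at 3.5 h. By 16 h it read 1460.0, 1353, 1489, 1421 and 2874 CPM in Control, 2196, 2179, 1786, 2971 and 1968 with VWF and 4760.2, 5697, 3832 and 7582 with LPS. LPS cultures were above all others at both times, with Control 16 h replicate 5 the highest of the controls. The rise with LPS was 0.96, adjusted p = 9.63e-05 at 3.5 h and 1.71, SE 0.29, adjusted p = 7.41e-04 at 16 h. With VWF the change was 0.06, adjusted p = 0.779 and 0.37, adjusted p = 0.277, the latter 0.62 without Control 16 h replicate 5 (adjusted p = 0.00329), so the call turns on that library. VWF was below LPS at 16 h, at a log2 difference of −1.30 (SE 0.21), adjusted p = 4.66e-04. Npc1, its partner, was at −0.28, adjusted p = 0.676 with LPS at 16 h.

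Lipa (GRCm38, chr19:34492318-34527474, minus strand), the acid lipase that frees cholesterol from its esters, went down with LPS. Its values were 944, 1071, 976, 1367 and 1239 CPM in Control, 930.1, 778, 656, 658 and 1071 with VWF and 639.6, 853, 718 and 654 with LPS at 3.5 h. They were 756, 895, 988, 882 and 517 CPM in Control, 523, 603, 825, 437 and 816 with VWF and 386, 349, 546 and 235 with LPS at 16 h. The LPS cultures were all below the controls at 3.5 h, and at 16 h 1 of the 4 passed Control replicate 5. The change was −0.62, adjusted p = 0.00176 at 3.5 h and −1.05, SE 0.26, adjusted p = 0.00732 at 16 h. Without Control 16 h replicate 3 or LPS 16 h replicate 4 the latter was −0.97 or −0.88. With VWF it was −0.42, adjusted p = 0.0547 and −0.34, adjusted p = 0.313, and at 16 h VWF was above LPS (0.76, adjusted p = 0.0339, up to 0.0836 without single cultures).

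Psap (GRCm38, chr10:60277627-60302597, plus strand) was the most abundant of the 41. It stood at 8397, 9020.3, 9547, 9940.5 and 9711 CPM in Control, 6946, 7241, 7998, 8245 and 8278 with VWF and 6767, 8072, 8083 and 8777 with LPS at 3.5 h. In the 16 h cultures it stood at 6833, 6622, 6861, 7400.3 and 5674 CPM in Control, 5714, 5866, 6466, 6368 and 6953 with VWF and 10674, 10446, 10476 and 8401 with LPS. VWF cultures were below Control at 3.5 h, and LPS cultures above both other groups at 16 h. It fell with VWF at 3.5 h (−0.24, adjusted p = 0.0385, up to 0.0948 without single cultures) and was higher with LPS at 16 h (0.62, adjusted p = 0.00201, or 0.08, adjusted p = 0.71, with scaling to total counts), where VWF was lower than LPS, at a log2 difference of −0.67 (SE 0.12) (adjusted p = 6.90e-04). Tpp1, a peptidase, and Asah1, a ceramidase, fell with LPS at 3.5 h (−0.65, adjusted p = 0.00878 for Tpp1, and −0.41, adjusted p = 0.039 for Asah1, up to 0.0866 without single cultures). Smpd1, the acid sphingomyelinase, fell with VWF at 3.5 h (−0.37, adjusted p = 0.00829), and Ppt1, a thioesterase, with VWF at 16 h (−0.38, adjusted p = 0.00232). Both were lower with VWF than with LPS at 16 h (−0.41 and −0.38), turning to 0.02 and 0.06 with scaling to total counts.

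**Figure D5:**
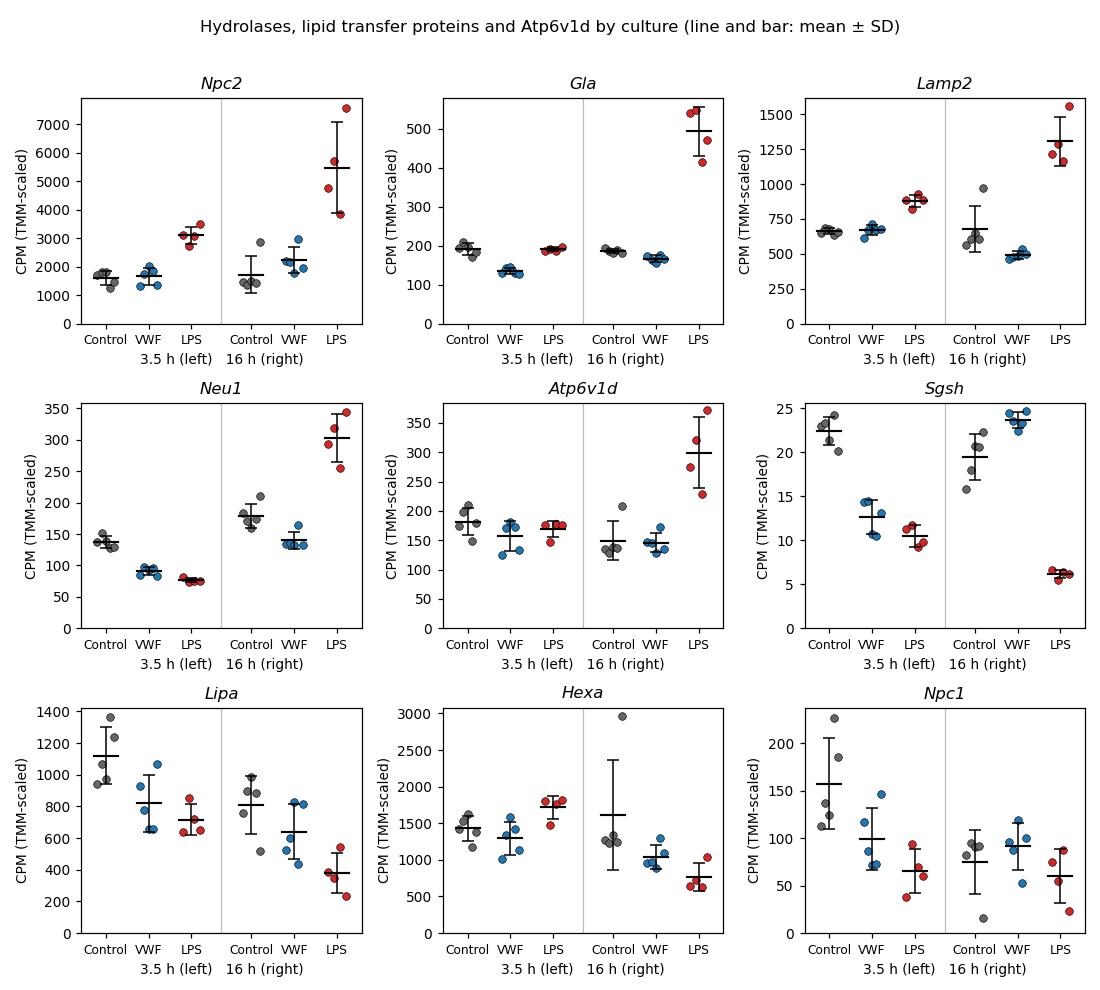
CPM (y axis, from 0) of Npc2, Gla, Lamp2, Neu1, Atp6v1d, Sgsh, Lipa, Hexa and Npc1 in each culture (points), with group mean and SD (line and bar), for Control, VWF and LPS at 3.5 h (left) and 16 h (right). At 16 h the LPS cultures lie above all VWF cultures for Npc2, Gla, Lamp2, Neu1 and Atp6v1d and below them for Sgsh. The Control point of replicate 5 at 16 h is far from the other 4 for Hexa, Npc2 and Npc1.

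The members were set beside 100 further genes of the same organelle in 5 lists. Of these, 84 could be tested at 3.5 h. With VWF 32 were lower and 11 higher than Control, beside 20.8% and 22.8% of all genes, and past 2-fold 10 were lower and 5 higher (5.52% and 9.18%). With LPS 33 were lower and 17 higher (33.9% and 31.8% of all genes), and past 2-fold 15 and 6 (11.8% and 12.8%). At 16 h 13 of 79 were lower and 12 higher with VWF (14.7% and 13.1%), of which 2 and 3 were past 2-fold (4.15% and 4.55%). With LPS at 16 h 12 of 78 were lower and 27 higher (26.4% and 27.3%), of which 6 and 16 were past 2-fold (12.4% and 15.3%). By list, with VWF at 3.5 h 10 of 23 further enzymes and activators were lower and 3 higher (median −0.19), 9 of 21 further membrane proteins lower and 6 higher (−0.29), 7 of 15 sorting genes lower and 0 higher (−0.26), and 6 of 17 genes of MiT control lower and 1 higher (−0.21). Of the 8 further V-ATPase genes 0 were lower and 1 higher (−0.02), with 2 at an unadjusted p under 0.05. With LPS at 16 h 11 of 22 further enzymes were higher and 3 lower (0.29), and 9 of 20 further membrane proteins higher and 5 lower (0.35). These single lists stand beside the same shares of all genes. The counts for these 100 genes, and the fold changes of those named from them, are given with TMM factors and all libraries only. Whether they hold with other scaling or without single libraries was not tested. With scaling to total counts the median of all genes with LPS at 16 h went from −0.03 to −0.57.

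The largest changes with VWF at 3.5 h were in Tfec (2.86), Mcoln2 (2.22), an endolysosomal channel related to Mcoln1, and Hyal1 (−2.15), a hyaluronidase at 2.17 ± 0.413 CPM with VWF against 9.84 ± 3.49 in Control. Of the Hyal1 exon length 50.8% overlaps Naa80 on the same strand, so its counts are uncertain. With LPS they were in Acp5 (3.46), a tartrate-resistant acid phosphatase, Tfec (3.03) and Flcn (−2.90), the folliculin that takes part in the control of Tfeb by mTORC1. Of the 17 tested genes of the list on MiT control and mTORC1 docking, 4 fell past 2-fold with VWF at 3.5 h, Flcn, Fnip1, Fnip2 and Rragd. The same 4 did with LPS. Over all genes 5.52% fell past 2-fold with VWF and 11.8% with LPS. The 4 were named after their values were seen. Flcn was at 80.5 ± 8.25 CPM in Control, 22.7 ± 4.64 with VWF and 10.6 ± 3.14 with LPS at 3.5 h (mean ± SD). At 16 h Rragd was under the expression minimum, none of the other 3 was lower past 2-fold with either agonist, and Fnip2 was higher with LPS (1.04). At 16 h the largest changes were in Acp5 (1.84), Acp2 (1.54) and Laptm4b (−1.27) with VWF. With LPS they were in Sort1 (−3.23), the sorting receptor sortilin, Acp5 (2.84) and Galc (−2.69), the galactosylceramidase. Of the Acp2 exon length 12.6% lies opposite Ddb2. Adjusted p values of the genes named here for their size were at most 1.59e-04.

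Members with CACGTG in the promoter window were set beside those with a window that lacks it. With VWF at 3.5 h 7 of the 10 with the run and 9 of the 24 tested without it were lower at an adjusted p under 0.05, with medians of −0.36 and −0.20, where 20.8% of all genes were lower. With LPS at 3.5 h 4 of 10 and 10 of 24 were, with medians of −0.16 and −0.24, near the 33.9% of all genes. With LPS at 16 h 1 of 10 was lower and 1 higher, Sgsh and Gla, against 6 and 9 of 24, beside 26.4% and 27.3% of all genes. With VWF at 16 h 1 of 10 with the run and 7 of 24 without it were lower, with medians of −0.17 and −0.32, beside 14.7% of all genes. Of the 6 members that have no window 3 were lower with VWF at 3.5 h, with a median of −0.67. The counts are a description, and the difference between them was not tested.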

How the data were processed

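RNA of 28 BMDM cultures was sequenced by the authors as paired-end reads of 150 bases and aligned with STAR to GRCm38/mm10. The deposited table holds raw read counts per gene, and the authors tested theirs with DESeq2. For the annotation and the strand setting of the counting the answer is: not given in the sources used here. The 41 genes and the lists beside them were chosen with earlier results of these data known.

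For each comparison its groups were fitted with edgeR 4.0.16 (quasi-likelihood test, robust, TMM factors) in R 4.3.3 over genes with at least 10 TPM in 1 culture or more, and p-values were Benjamini-Hochberg adjusted over all genes tested. A gene counts as past 2-fold at an adjusted p under 0.05 and an absolute log2 fold change over 1. Interactions were fitted over the 4 groups concerned. SEs are the fold change divided by the root of its F. TPM used exon lengths of GENCODE M21. The scripts were tested on simulated data. Total counts were 41131209 to 77699206, and no pair of replicates agreed within sampling noise (chi-square per degree of freedom at least 17.08 over 52 pairs). Alternatives were DESeq2 1.42.0, other scaling and filters, all groups in one fit, each culture left out, and the replicate number as a block. A further alternative, without both libraries that stood apart, was chosen after seeing the data. Results of the alternatives are given for the members and for all genes, not for the other lists.

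Same-numbered VWF and LPS cultures at 16 h deviated together from their group means (correlations 0.469, 0.184, 0.839 and 0.817 over genes), which was taken as a pairing seen in the data, since the labels give only numbers. With the block, 18 members were lower and 10 higher in that comparison, and 5 and 1 past 2-fold. Of all genes 5622 of 7574 then passed the adjusted p, in either direction, and 1943 were past 2-fold. In the other comparisons at least 1 pair was at 0.1 or below. A library's log2 distance from the other cultures of its group correlated with exon length at −0.47 to 0.564 (Spearman, 28 libraries). For VWF and LPS at 16 h this was −0.0728 and 0.363 in replicate 1 and −0.104 and −0.455 in replicate 2. It was 0.50 and 0.475 in replicate 3 and −0.47 and −0.38 in replicate 4. The part of exon length in the pairing and in the levels was not tested.

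All 41 genes are named. Values in every culture are given for the 3 factors, for each member past 2-fold in a comparison of treatments and for the member of each role with the highest mean TPM. Of the other lists the 3 largest changes past 2-fold per comparison with Control are named; the 4 MiT control genes that fell, and Tcirg1, were named after their values were seen.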

Additional observations from a re-analysis of the deposited data

Results flagged for a closer look

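Of 246 groups of cultures screened, 1 for each member and group, 36 (14.6%) held a culture far from the others of its group by Dixon's criterion, which chance alone gives in about 5%. Control 16 h replicate 5 accounts for 21 of them. In Control 16 h replicate 5 the values above the others were Lamp2 972 CPM against 563 to 653, Cd63 2509 CPM against 1154 to 1307, Hexa 2959 CPM against 1233 to 1340.1 and Glb1 147 CPM against 99.3 to 107. Beside these it had Gusb 970.1 CPM against 700.3 to 741, Npc2 2874 CPM against 1353 to 1489, Mcoln1 159 CPM against 68.5 to 72.8 and Smpd1 55.4 CPM against 36.8 to 41.9. Beside these it had Fuca1 388 CPM against 225 to 269.9, Tfeb 150.2 CPM against 71.2 to 84.1, Atp6v0d1 316 CPM against 225 to 235 and Atp6v1c1 369 CPM against 278 to 299.9. Beside these it had Atp6v1d 208 CPM against 129 to 138, Atp6v1e1 653 CPM against 328 to 379 and Atp6v1h 333 CPM against 142 to 165. In Control 16 h replicate 5 the values below the others were Cd68 216 CPM against 785 to 895, Npc1 15.5 CPM against 82.5 to 94.5, Asah1 65.5 CPM against 232 to 288 and Arsa 21.6 CPM against 33.9 to 36.1. Beside these it had Naglu 59.6 CPM against 104 to 119 and Atp6v0c 31.2 CPM against 183 to 217. In VWF 16 h replicate 4 the values above the others were Cd63 1409.8 CPM against 859 to 1014, Glb1 103 CPM against 88.1 to 90.2, Neu1 165 CPM against 132 to 136 and Mcoln1 76.5 CPM against 54.6 to 58.5. Beside these it had Atp6v1e1 424 CPM against 293 to 312. In VWF 16 h replicate 4 the value below the others was Idua 28.8 CPM against 35.8 to 38.2. In LPS 16 h replicate 4 the values below the others were Psap 8401 CPM against 10446 to 10674 and Atp6v0c 101 CPM against 299 to 330.3. In LPS 3.5 h replicate 2 the values below the others were Hexa 1482 CPM against 1763 to 1814 and Atp6v1d 148 CPM against 175 to 177. In VWF 3.5 h replicate 5 the values above the others were Gaa 78.2 CPM against 67.0 to 70.2 and Mitf 232 CPM against 183 to 192. In Control 16 h replicate 1 the value below the others was Ids 42.5 CPM against 50.8 to 53.9. In Control 3.5 h replicate 1 the value below the others was Lamp1 1771 CPM against 1971 to 2028. In Control 3.5 h replicate 4 the value above the others was Ids 62.1 CPM against 55.7 to 57.5.

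The response differed between the times by over 2-fold in 11 cases, by the interaction term of edgeR with its adjusted p. For Sgsh with VWF the term was 1.09 (adjusted p = 1.34e-05), from −0.80 at 3.5 h to 0.27 at 16 h. For Tfeb with VWF the term was 1.17 (adjusted p = 0.0012), from −1.78 at 3.5 h to −0.63 at 16 h. For Mitf with VWF the term was −1.40 (adjusted p = 9.41e-07), from 0.73 at 3.5 h to −0.69 at 16 h. For Atp6v0d2 with VWF the term was −1.65 (adjusted p = 1.15e-04), from −0.84 at 3.5 h to −2.51 at 16 h. For Hexa with LPS the term was −1.32 (adjusted p = 0.00431), from 0.28 at 3.5 h to −1.04 at 16 h. For Gla with LPS the term was 1.43 (adjusted p = 2.73e-08), from 0.02 at 3.5 h to 1.44 at 16 h. For Neu1 with LPS the term was 1.62 (adjusted p = 6.54e-08), from −0.82 at 3.5 h to 0.79 at 16 h. For Tfeb with LPS the term was 2.90 (adjusted p = 2.82e-07), from −3.39 at 3.5 h to −0.50 at 16 h. For Tfe3 with LPS the term was 1.18 (adjusted p = 3.98e-08), from −0.72 at 3.5 h to 0.45 at 16 h. For Atp6v0d2 with LPS the term was −1.58 (adjusted p = 5.35e-05), from −0.77 at 3.5 h to −2.37 at 16 h. For Atp6v1d with LPS the term was 1.13 (adjusted p = 5.14e-04), from −0.09 at 3.5 h to 1.04 at 16 h. The terms for Hexa and Atp6v1d with LPS fell under 2-fold without Control 16 h replicate 5 (−0.97) and without LPS 16 h replicate 4 (0.999).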

How the results depend on the processing

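With scaling to the total count the members past 2-fold numbered 5 for VWF and 12 for LPS against Control at 3.5 h and 2 for VWF against LPS, and those past the adjusted p alone 34 for VWF and 37 for LPS against Control at 3.5 h. Of all genes, 1255 of 8200, 2865 of 8190 and 1091 of 7500 were then past 2-fold in these 3.5 h comparisons. Past the adjusted p alone were 4326 of 8200 with VWF and 6269 of 8190 with LPS. The sign turned in 29 values that passed the adjusted p under either scaling or both. With VWF at 3.5 h Lamp2 became −0.18. With LPS at 3.5 h these were Lamp1 −0.41, Lamp2 −0.0902, Cd63 −0.10, Gla −0.50, Glb1 −0.45, Ids −0.36, Ppt1 −0.49, Fuca1 −0.43 and Atp6v1h −0.35. For VWF against LPS at 3.5 h they were Glb1 0.11 and Psap 0.28. With LPS at 16 h they were Lamp1 −0.35, Gaa −0.44, Ids −0.24, Ppt1 −0.49, Smpd1 −0.35, Tfe3 −0.10, Mitf −0.12 and Atp6v1b2 −0.36. For VWF against LPS at 16 h they were Lamp1 0.16, Glb1 0.43, Ids 0.33, Ppt1 0.0575, Smpd1 0.0246, Tfe3 0.30, Atp6v0d1 0.0069, Atp6v1a 0.0238 and Atp6v1c1 0.19. Between Control cultures of both times, DESeq2 and the fit of all groups each called 1 member where edgeR called 0, and the replicate block left 5 past the adjusted p in place of 9. With no filter 5 members in place of 9 passed for the interaction of VWF with time. Without both libraries that stood apart 31 members in place of 18 passed with LPS at 16 h, in a fit with fewer samples. The cause of these shifts was not tested.

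Leaving out single cultures gave 10 to 20 members past the adjusted p for VWF at 16 h and 6 to 18 for Control at 16 h against 3.5 h, the highest both times without Control 16 h replicate 5. The replicate block for pairs that share only a number gave 20 members for VWF and 21 for LPS at 3.5 h, 11 and 20 at 16 h, and 13 for VWF against LPS at 3.5 h, where the fit without it gave 20, 23, 12, 18 and 16. For VWF against LPS at 16 h it gave 28 in place of 23. Of all genes, 3582 of 8200 passed with the block for VWF and 4850 of 8190 for LPS at 3.5 h. At 16 h 1801 of 7798 and 4570 of 7994 passed. For VWF against LPS 3199 of 7500 did at 3.5 h and 5622 of 7574 at 16 h.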
